A study of Mus musculus with 30 samples.

Results

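The genes followed here through regeneration of the mouse digit tip are 9 that mark mature osteoblasts, osteocytes and the mineral they lay down, namely *Bglap*, *Bglap2*, *Ibsp*, *Spp1*, *Alpl*, *Dmp1*, *Mepe*, *Phex* and *Sost*. They were chosen by symbol, and all 9 were found among the 20321 genes of the tables. RNA came from the hindlimb distal phalanx (P3) of digit 3 of adult male C57Bl/6 mice, taken at 0, 3, 6, 12 and 24 h and at 3, 7, 14 and 21 d after a minor part of the bone tip had been cut off, and the labels name no other treatment for any group. Each of the 30 libraries came from 1 mouse, with 3 mice at each time and 6 at 7 d. Each time was treated as a separate set of animals, although 1 library at 0 h and 1 at 12 h carry the same animal-like label and date in their titles. The digit was sequenced whole, and 0 h is a digit taken at the amputation rather than an uncut one.

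Bone is built by osteoblasts, which secrete a collagen matrix and then let mineral grow in it. Some of them become buried as osteocytes, which keep contact through fine processes and control both mineral and bone mass. Alkaline phosphatase acts early and frees phosphate, bone sialoprotein and osteopontin bind the mineral, osteocalcin comes late in the osteoblast, and DMP1, MEPE, PHEX and sclerostin are best known from osteocytes. After amputation of the mouse digit tip, osteoclasts first erode the stump bone, and new bone then forms directly within the blastema.

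The 9 genes did not share a course. The osteocalcin gene *Bglap2*, and the sum of the osteocalcin copies, fell between 24 h and 7 d and had returned to the range of 0 h or above it at 14 d. *Ibsp* and *Alpl* showed no early loss in these tests and ended far above their starting level, *Spp1* was higher at 3 and 7 d and fell again by 14 d, and for the osteocyte genes *Dmp1*, *Mepe* and *Sost* no change over the course was called. Over the 9 time points, 6 of the 9 genes changed (edgeR quasi-likelihood F-test, Benjamini-Hochberg adjusted p under 0.05), beside 9.01% of the 13793 genes tested. In bulk RNA, fewer cells of a type and less RNA per cell cannot be told apart.

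Read against 0 h, the losses were few and the gains came late. At 3, 6 and 12 h none of the 9 genes was called, beside 0.254%, 0.189% and 0.167% of all genes. At 3 and 6 h no gene of the 9 had an unadjusted p under 0.05, and at 12 h only *Spp1* did. DESeq2 called none at these 3 times either. At 24 h 1 gene was lower, *Bglap2*, beside 0.087% of all genes called lower. At 3 d 1 was lower and 1 higher, *Bglap2* and *Spp1*, beside 0.0653% and 0.486%. At 7 d *Bglap2* was lower and 2 genes, *Ibsp* and *Spp1*, were higher, beside 0.66% and 1.68%. At 14 d 2 were higher, *Ibsp* and *Alpl*, beside 1.48%, and at 21 d 3 were higher, *Ibsp*, *Spp1* and *Alpl*, beside 1.73%. All of these comparisons share the same 3 mice at 0 h.

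Between neighbouring times, calls among the 9 genes came only in the step from 7 to 14 d, given with the genes concerned. In the steps from 3 to 6 h, 6 to 12 h, 12 to 24 h, 24 h to 3 d, 3 to 7 d and 14 to 21 d edgeR called 0 of them, beside 0.16%, 0%, 0%, 0.0653%, 0.0145% and 0% of all genes, and 3, 0, 3, 3, 3 and 2 of the 9 had an unadjusted p under 0.05.

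**Figure D1:**
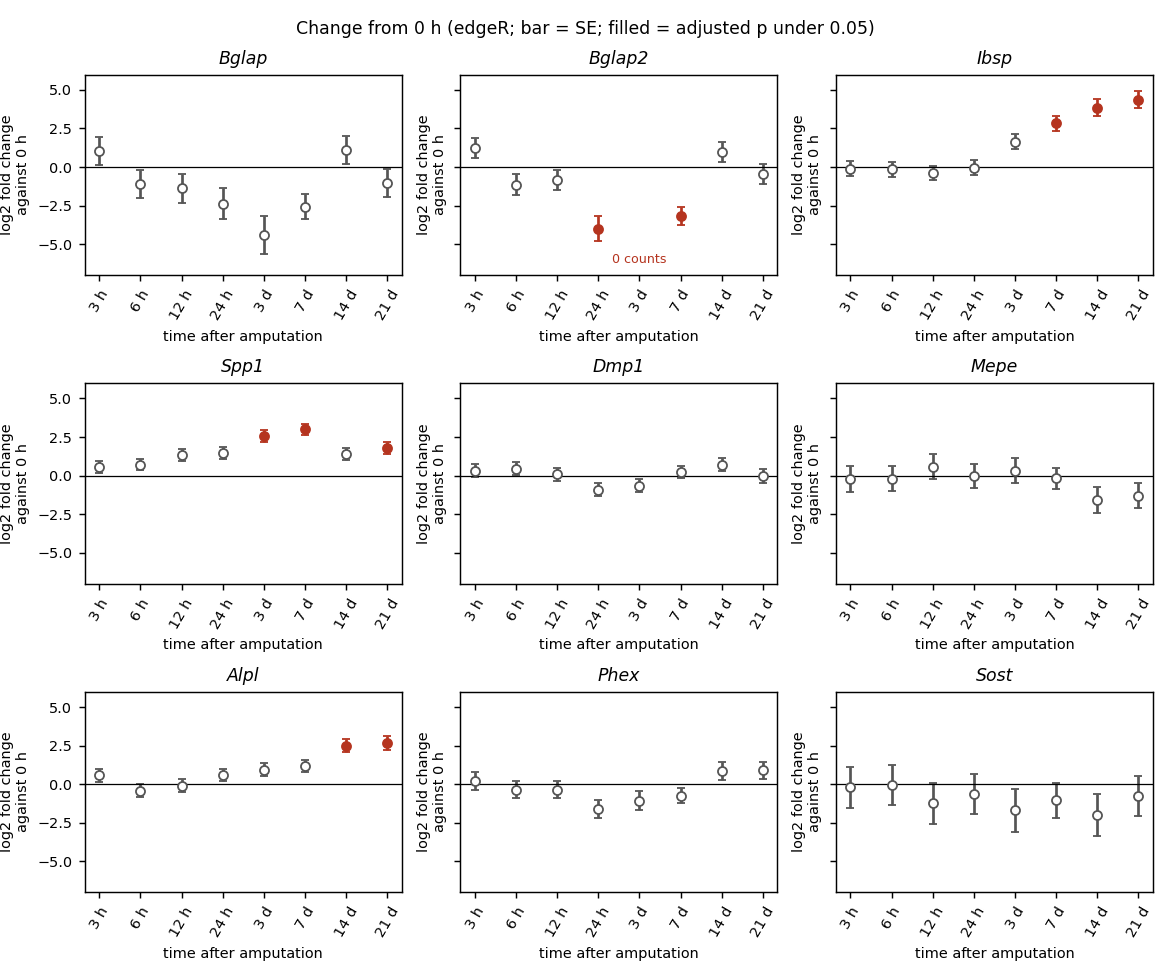
Log2 fold change against 0 h (vertical axis) at each later time (horizontal axis) for each gene, from 1 edgeR fit over 30 mice; bars are standard errors, and filled points have an adjusted p under 0.05. *Bglap2* had 0 counts in all 3 mice at 3 d, so no fold is drawn there. Filled points lie below 0 only for *Bglap2* and above 0 only for *Ibsp*, *Spp1* and *Alpl*.

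Library totals lay between 3167625 and 16277816 expected counts (median 6103688), so 3 counts corresponded to at most 0.947 CPM. The dates in the sample titles fall into July to August (16 mice) and November to January (14 mice). At 3 and 12 h all mice are from the first period and at 21 d all are from the second, so period and time cannot be told apart there, and at 0 h the first period holds 1 mouse. At the 6 times that hold both periods, no difference between periods in the time course was called for any of the 9 (edgeR interaction, lowest adjusted p = 0.211, for *Mepe*), beside 0.883% of 13587 genes, while 3 of them, *Mepe*, *Spp1* and *Alpl*, had an unadjusted p under 0.05. Osteoclast, macrophage, cartilage, keratinocyte, blood, endothelial and fibroblast markers were all detected in these whole digits. Sums of some of these lists are given below beside single genes.

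Mouse osteocalcin, the vitamin K-dependent protein that binds calcium in mature bone matrix, is encoded by *Bglap* (ENSMUSG00000074483, GRCm38 chr3:88383501-88384464) and *Bglap2* (ENSMUSG00000074486, chr3:88377736-88378699). Another copy, *Bglap3* (ENSMUSG00000074489, chr3:88368616-88372743), lies beside them on the same minus strand. Their coding sequences have 288 bases each in the GENCODE transcripts, and *Bglap* differs from *Bglap2* at 4 of them and from *Bglap3* at 13, while *Bglap2* differs from *Bglap3* at 9. The stretch of 60 bases within exon 4 that holds the most differing bases is shown here from coding base 190 to 249, with the 5 bases at which the copies differ in capitals, because it shows how alike the copies are to a 65-base read.
Bglap (chr3:88383674-88383733, minus strand): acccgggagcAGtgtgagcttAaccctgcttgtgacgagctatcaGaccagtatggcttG
Bglap2 (chr3:88377909-88377968, minus strand): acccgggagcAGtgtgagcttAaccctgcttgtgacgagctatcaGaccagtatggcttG
Bglap3 (chr3:88368795-88368854, minus strand): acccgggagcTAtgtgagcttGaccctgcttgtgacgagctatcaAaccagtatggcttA
*Bglap* and *Bglap2* are identical over this stretch, and all 5 differences set *Bglap3* apart. Of the 65-base windows of the *Bglap* transcript, 69.7% occur unchanged in *Bglap2* or *Bglap3*, as do 80.3% of those of *Bglap2*. The authors let reads match with up to 2 mismatches, and with that allowance the shares are 92.6% for *Bglap* and 100% for *Bglap2*. For the other 7 genes no window occurs unchanged in another gene of the tables, and windows within 2 mismatches were not searched. The split between *Bglap* and *Bglap2* is thus an estimate made by RSEM. Of the counts above 0, 88.0% were not whole for *Bglap* and all were not for *Bglap2*. But 90.0% were also not whole for *Phex* and 63.3% for *Ibsp*, which share no unchanged window. The sum of the 3 osteocalcin copies was whole within 0.05 counts in 29 of 30 mice.

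*Bglap2* had the higher mean level of the 2 at 0 h and was given 0 counts in all mice at 3 d. In TPM, which are levels scaled for transcript length and library, the 3 mice at 0 h had 59.5, 93.3 and 66.2, and at 3 h they had 102, 187 and 190. At 6 h the values were 25.2, 34.9 and 41.1, and at 12 h 56.4, 63.8 and 19.3. At 24 h they were 7.63, 5.69 and 0, and at 3 d all 3 mice were at 0 counts. At 7 d the 6 mice ranged from 0 to 20.5 with a median of 9.57, at 14 d the values were 179, 177 and 90.8, and at 21 d 29.2, 40.9 and 81.6. Every mouse at 24 h, 3 d and 7 d lay under every mouse at 0 h, 6 h and 14 d, and of all genes 10.7%, 4.34% and 2.31% lay as wholly under 0 h at these 3 times. Every mouse at 3 h lay above every mouse at 0 h, which 4.55% of genes also did.

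*Bglap* was likewise lowest in its mean at 3 d, and its means were highest at 14 d and 3 h. It had 26.9, 34.0 and 53.8 TPM at 0 h, 109, 62.9 and 45.5 at 3 h, 23.1, 16.5 and 13.8 at 6 h, and 14.4, 23.8 and 9.94 at 12 h. The values were 14.6, 0 and 6.09 at 24 h and 0, 0 and 6.92 at 3 d. At 7 d the lowest mouse had 0, the median was 3.73 and the highest was 16.2. They were 125, 92.8 and 33.2 at 14 d and 8.06, 25.8 and 18.4 at 21 d. All mice from 6 h to 7 d lay under all mice at 0 h, as 8.63% of genes did at 6 h and 5.25% at 12 h. So did all 3 at 21 d, where 14.3% of genes did. The 14 d mice overlapped those at 0 h.

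**Figure D2:**
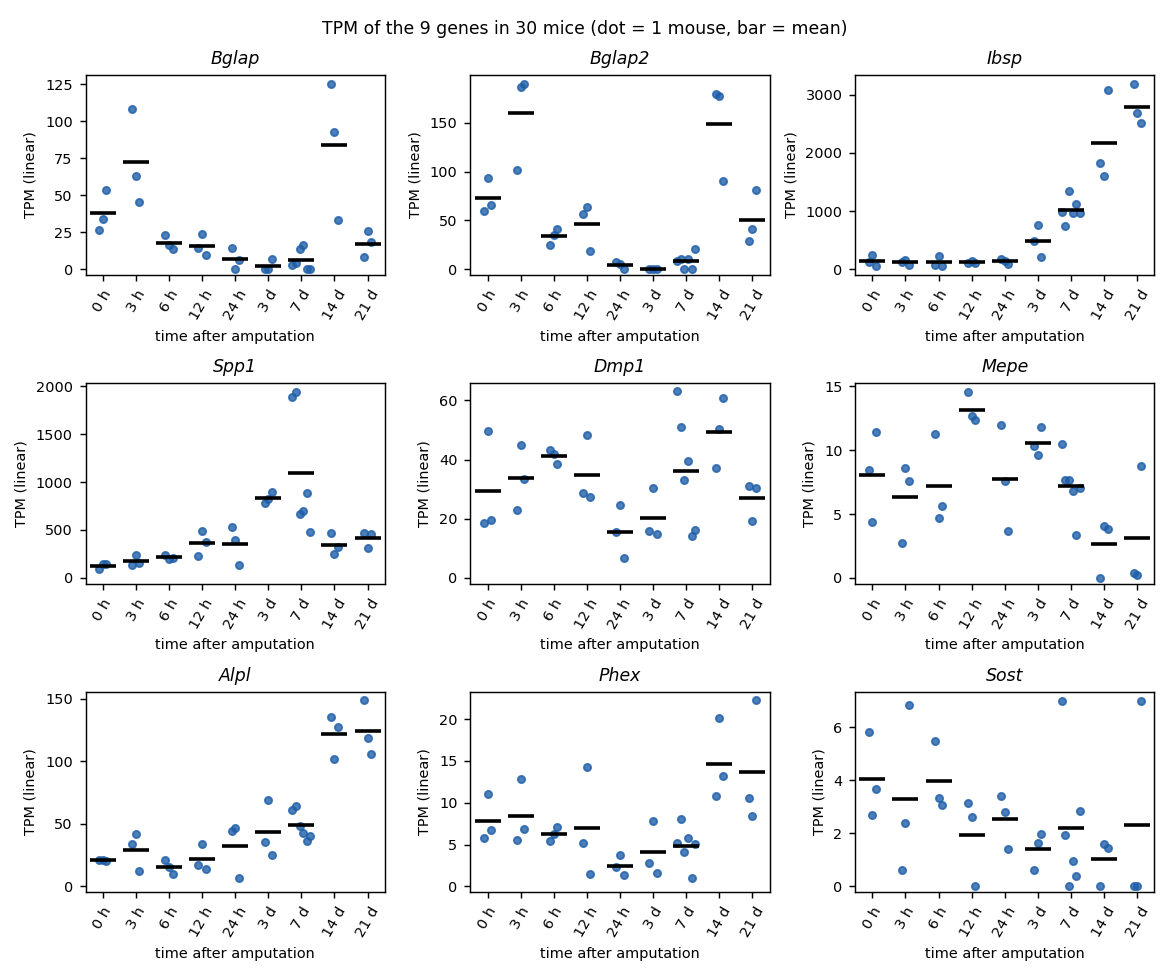
TPM of each gene (vertical axis, linear, from 0) at each time (horizontal axis); each dot is 1 mouse and each bar the mean, with 3 mice a time and 6 at 7 d. *Bglap* and *Bglap2* dip between 24 h and 7 d, *Ibsp* and *Alpl* are highest at 14 and 21 d, *Spp1* has its highest mean at 7 d from 2 of the 6 mice, and 1 mouse at 21 d stands above the other two for *Mepe* and *Sost*.

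The fall and the return were tested per gene and for the sum of the copies. Against 0 h, *Bglap2* had a log2 fold change of -3.99 at 24 h (SE 0.81, edgeR adjusted p = 0.0113) and -3.15 at 7 d (SE 0.58, adjusted p = 0.00246). At 3 d it was called lower too (adjusted p = 0.000466), but with all 3 mice at 0 and its reads shared with the other copies no fold is given. The 3 copies together held 25, 6 and 20 counts in these mice. The call at 24 h was lost without replicate 2 at 0 h, or replicate 2 or 3 at 24 h (adjusted p = 0.0724, 0.0731 and 0.0672). *Bglap* had a log2 fold change of -4.42 at 3 d (SE 1.22, adjusted p = 0.121) and -2.56 at 7 d (SE 0.80, adjusted p = 0.0933), neither of which passed. From 7 to 14 d both rose, *Bglap* by 3.66 (SE 0.80, adjusted p = 0.0285) and *Bglap2* by 4.13 (SE 0.58, adjusted p = 0.000565), 2 of 9 genes beside 0.355% of all genes called higher in that step.

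Summing the 3 copies removes the split between them. In CPM, counts scaled by TMM library size and not for length, the sum was 29.4, 37.2 and 32.6 at 0 h and 62.0, 69.0 and 70.5 at 3 h. It was 16.5, 14.8 and 25.6 at 6 h, 24.3, 23.6 and 19.1 at 12 h, 5.30, 5.17 and 3.04 at 24 h, and 2.46, 1.76 and 4.86 at 3 d. At 7 d the 6 mice ranged from 1.93 to 11.7, at 14 d the sum was 78.4, 70.2 and 34.3, and at 21 d 12.7, 19.7 and 29.4. The sums at 3 h all lay above those at 0 h and the sums from 6 h to 7 d all below, while those at 14 and 21 d overlapped with 0 h. The summed *Bglap* family fell at 24 h by 2.85 (SE 0.44, adjusted p = 0.000635), at 3 d by 3.46 (SE 0.46, adjusted p = 8.58e-05) and at 7 d by 2.41 (SE 0.34, adjusted p = 6.27e-05). It rose by 3.29 from 7 to 14 d (SE 0.34, adjusted p = 2.01e-06) and was still higher than at 7 d by 1.73 at 21 d (SE 0.34, adjusted p = 0.00512).

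The higher values of the summed *Bglap* family at 3 h did not pass (log2 fold change 1.02, SE 0.39, adjusted p = 0.321), and neither did its lower values at 21 d than at 14 d (-1.56, SE 0.39, unadjusted p = 0.000429, adjusted p = 0.845). *Bglap3* alone, a copy also known outside bone, was lower at 7 d (-1.65, SE 0.41, adjusted p = 0.0246) and rose from 7 to 14 d (2.16, SE 0.41, adjusted p = 0.00919). Within July to August the mean of log2(CPM + 1) of *Bglap2* differed from 0 h by -2.62 at 24 h, -3.84 at 3 d and -2.40 at 7 d, and within November to January by -4.10, -4.10 and -3.01. Blood and marrow markers were also low at these times. The 7 of the 8 listed that are in the tables summed to 66.7 to 477 CPM at 0 h, 38.4 to 79.9 at 24 h, 5.6 to 32.6 at 3 d and 17.0 to 83.5 at 7 d. At 14 d they summed to 5.65 to 33.8 CPM. The part of blood and marrow cells in the level of the osteocalcin genes was not tested.

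**Figure D3:**
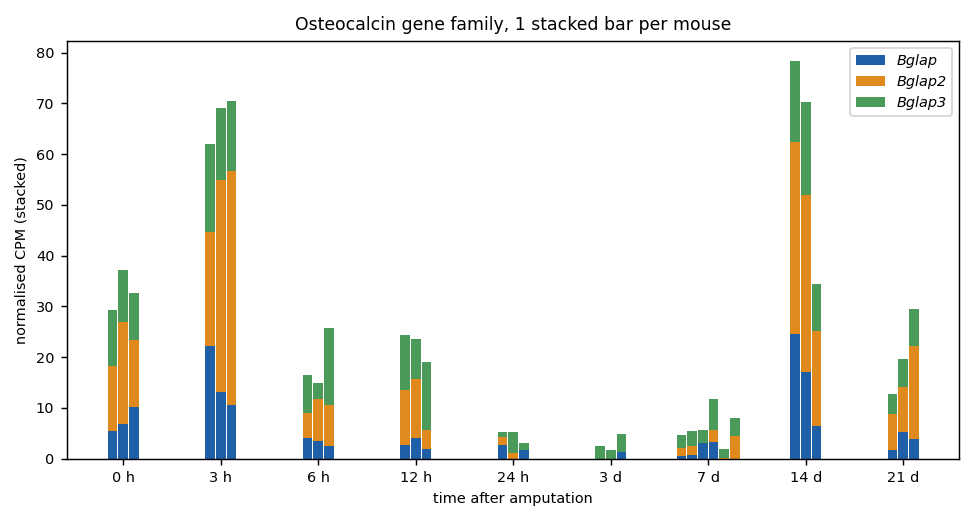
Normalised CPM (vertical axis, linear) of *Bglap*, *Bglap2* and *Bglap3*, stacked in 1 bar per mouse at each time (horizontal axis). The sum lies between 1.76 and 11.7 in all 12 mice from 24 h to 7 d and between 34.3 and 78.4 at 14 d.

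*Spp1* and *Bglap* had the most opposite courses among the 9 genes (Pearson r = -0.61 of log2(CPM + 1) over 30 mice, which share their time groups). Their RefSeq promoters, the 250 bases before the annotated start in GRCm38.p6, are shown because both hold the core of the site bound by Runx factors, which include the osteoblast regulator RUNX2. The core, ACCACA or its reverse complement TGTGGT, was searched on both strands and is in capitals.
Bglap (chr3:88384467-88384716, minus strand): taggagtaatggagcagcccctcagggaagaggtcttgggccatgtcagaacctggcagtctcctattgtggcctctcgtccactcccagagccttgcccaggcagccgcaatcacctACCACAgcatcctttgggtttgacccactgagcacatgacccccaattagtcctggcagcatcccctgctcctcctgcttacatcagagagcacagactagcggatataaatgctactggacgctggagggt
Spp1 (chr5:104434861-104435110, plus strand): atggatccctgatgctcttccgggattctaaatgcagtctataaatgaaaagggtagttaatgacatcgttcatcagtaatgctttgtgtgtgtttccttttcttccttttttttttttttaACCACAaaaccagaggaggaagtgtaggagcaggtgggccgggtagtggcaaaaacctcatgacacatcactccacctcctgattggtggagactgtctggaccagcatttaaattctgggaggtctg
The first base of the match lies 132 bases before the start of *Bglap* and 128 before that of *Spp1*. The 8 genes with a promoter have 11 entries, and 4 of these had a match, the others being that of *Mepe*, with 2 matches, and the second of *Dmp1*. Of all 32851 entries 14.0% had one. The letters alone thus occur in promoters of genes that moved in opposite directions and of genes for which no change was called.

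*Ibsp* encodes bone sialoprotein, an acidic matrix protein that nucleates mineral, and reached the highest level of the 9 and had the largest gain that passed. It lies at chr5:104299171-104311469. It had 129, 239 and 61.3 TPM at 0 h, 126, 167 and 82.4 at 3 h, 78.0, 238 and 61.9 at 6 h, 118, 138 and 115 at 12 h, and 177, 138 and 95.8 at 24 h. All mice from 3 to 24 h lay within the range of the mice at 0 h. At 3 d the values were 480.4, 765 and 208, at 7 d they ranged from 737 to 1344 with a median of 976, at 14 d they were 1831, 1597 and 3083, and at 21 d 3187, 2685 and 2512. All mice at 7, 14 and 21 d lay above all mice at 0 h, as 3.99%, 14.5% and 9.02% of genes did.

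*Ibsp* rose against 0 h by a log2 fold change of 2.83 at 7 d (SE 0.48, edgeR adjusted p = 0.000708), 3.86 at 14 d (SE 0.53, adjusted p = 6.51e-05) and 4.37 at 21 d (SE 0.55, adjusted p = 1.02e-05). At 3 d it was 1.65 (SE 0.49, adjusted p = 0.176), which did not pass. The gain from 7 to 21 d, 1.54 (SE 0.40, adjusted p = 0.0438), passed narrowly and was lost in 20 of the 30 fits that left out 1 mouse. Within July to August *Ibsp* differed from 0 h by 3.62 at 7 d and 4.95 at 14 d on the log2(CPM + 1) scale, and within November to January by 2.68 and 3.55, and by 4.04 at 21 d. Cartilage markers, 9 genes in all, summed to 212 to 304 CPM at 0 h, 237 to 441 at 7 d and 427 to 784 at 21 d, with *Matn1* at 0 in 26 of 30 mice. Fibroblast markers summed to 2608 to 3778 CPM at 0 h and 9082 to 18779.7 at 21 d. Neither list moved as a whole. From 0 h to 21 d mean TPM of *Col2a1* went from 2.82 to 40.6 and of *Acan* from 9.4 to 58.2, but of *Comp* from 101 to 89.9. *Col3a1* went from 801 to 4265 and *Lum* from 250 to 1004, but *Dcn* went from 620 to 282. *Pdgfra* had 26.7 and 26.9 TPM. The part of cartilage cells and fibroblasts in the level of *Ibsp* was not tested.

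*Spp1* encodes osteopontin, which is made by osteoblasts and osteocytes but also by osteoclasts and macrophages, and it rose to 3 and 7 d and fell by 14 d. It had 97.6, 149.8 and 140.2 TPM at 0 h, 135, 239 and 153 at 3 h, 241, 196 and 212 at 6 h, 231, 485 and 369.5 at 12 h, and 532, 392 and 139.9 at 24 h. At 3 d the mice had 777, 828 and 900.2. At 7 d they ranged from 478 to 1940.4 with a median of 792, under the median of 828 at 3 d, while the mean was higher at 7 d (1092) than at 3 d (835). The values then were 471, 249 and 322 at 14 d and 472, 309.9 and 462 at 21 d. All mice at 6 h, at 12 h and at every time from 3 d on lay above all mice at 0 h, as 7.14%, 15.5% and 10.3% of genes did at 6 h, 12 h and 3 d.

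*Spp1* rose by 2.60 at 3 d (SE 0.39, edgeR adjusted p = 0.000466), by 2.99 at 7 d (SE 0.37, adjusted p = 1.32e-05) and by 1.79 at 21 d (SE 0.38, adjusted p = 0.00695). At 14 d the difference was 1.40 (SE 0.38, adjusted p = 0.0535). From 7 to 14 d it fell by 1.60 (SE 0.34, adjusted p = 0.0267), 1 of 9 genes beside 0.0798% of all genes called lower in that step. The call at 21 d was lost without replicate 1 at 0 h or replicate 1 at 21 d, while the one at 14 d was gained in 8 of the 30 fits that left out 1 mouse.

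Osteoclast markers rose with *Spp1* at 3 and 7 d and fell with it by 14 d, but the means parted at other times. The 13 markers summed to 198 to 276 CPM at 0 h, 200 to 272 at 12 h and 187 to 275 at 24 h. They summed to 929 to 1195 at 3 d, 1720.1 to 4896 at 7 d, 866 to 1612 at 14 d and 473 to 1294 at 21 d. *Calcr* was at 0 in 20 of 30 mice, and 10 of the 12 tested were higher at 7 d, beside 1.68% of all genes. Mean *Spp1* was 84.7 CPM at 0 h, 213 at 12 h and 231 at 24 h. From 14 to 21 d the mean marker sum went from 1214 to 887 CPM and mean *Spp1* from 223 to 293, with overlap between the mice. The 2 mice of July to August at 7 d had the highest *Spp1* of all 30, 1888 and 1940.4 TPM. Against these stood 478 to 886 in the 4 of November to January, of which 3 were left digits. The 2 mice of July to August also had 4896 and 3889 CPM of osteoclast markers against 1720.1 to 3079, and 539 and 562 CPM of macrophage markers against 157 to 206. Within July to August *Spp1* differed from 0 h by 3.59 at 7 d on the log2(CPM + 1) scale, and within November to January by 2.50. The part of osteoclasts and macrophages in the level of *Spp1* was not tested.

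**Figure D4:**
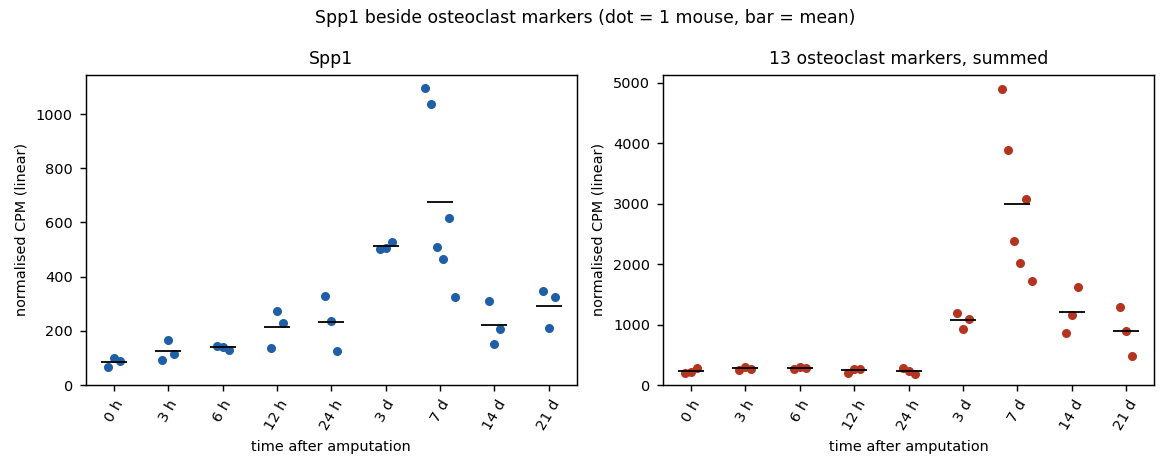
Normalised CPM (vertical axes, linear) of *Spp1* on the left and of 13 osteoclast markers summed on the right, at each time (horizontal axes); each dot is 1 mouse and each bar the mean. Both means are highest at 7 d, and the same 2 mice are the highest of all 30 in both.

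*Alpl* encodes tissue-nonspecific alkaline phosphatase, which splits pyrophosphate and so frees phosphate for mineral, and its course was close to that of *Ibsp*. It lies at chr4:137741733-137796384. It had 20.9, 21.4 and 20.6 TPM at 0 h, 33.7, 41.6 and 12.5 at 3 h, 21.0, 15.9 and 10.0 at 6 h, 17.2, 34.1 and 13.9 at 12 h, and 44.4, 46.9 and 6.37 at 24 h. At 0 h the 3 mice were nearly equal, and at each of these later times at least 1 mouse lay under them. At 3 d they had 35.3, 69.4 and 25.1, at 7 d 36.5 to 64.3 with a median of 45.4, at 14 d 135, 102 and 128, and at 21 d 149, 119 and 106. All mice from 3 d on lay above all mice at 0 h, as 10.3%, 3.99%, 14.5% and 9.02% of genes did at 3, 7, 14 and 21 d.

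*Alpl* rose by 2.50 at 14 d (SE 0.43, edgeR adjusted p = 0.000989) and by 2.67 at 21 d (SE 0.43, adjusted p = 0.000403), and from 7 to 21 d by 1.49 (SE 0.34, adjusted p = 0.0189). The last call was lost without replicate 1 or replicate 2 at 21 d. At 7 d the difference from 0 h was 1.18 (SE 0.38, adjusted p = 0.102). Within July to August it differed by 2.74 at 14 d on the log2(CPM + 1) scale, and within November to January by 2.29, and by 2.56 at 21 d. *Bglap2*, *Ibsp* and *Alpl* were the 3 of 9 genes higher at 21 than at 7 d, beside 0.964% of all genes, and *Bglap2* rose by 2.70 in that comparison (SE 0.59, adjusted p = 0.0138), a call lost without replicate 3 at 21 d (adjusted p = 0.103).

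*Phex* encodes a cell-surface peptidase of osteoblasts and osteocytes whose loss causes phosphate wasting, and its mean TPM was lowest at 24 h and highest at 14 d, close to that at 21 d. It had 5.82, 11.0 and 6.71 TPM at 0 h, 5.50, 12.8 and 6.91 at 3 h, 5.40, 6.32 and 7.09 at 6 h, 5.19, 14.3 and 1.53 at 12 h, and 2.37, 3.78 and 1.34 at 24 h. At 3 d the values were 2.85, 7.87 and 1.55, at 7 d 1.03 to 8.07 with a median of 5.14, at 14 d 10.8, 20.1 and 13.1, and at 21 d 10.6, 8.36 and 22.2. Only at 24 h did all its mice lie under all mice at 0 h, as 10.7% of genes did. Over the 9 time points *Phex* passed (edgeR adjusted p = 0.0238), but it had an adjusted p of 0.0638 or less when any 1 mouse was left out, and was lost without replicate 1 or 3 at 24 h, replicate 2 at 14 d or replicate 3 at 21 d. No single time passed. Its log2 fold change was -1.63 at 24 h (SE 0.60, adjusted p = 0.333), 0.85 at 14 d (SE 0.56, adjusted p = 0.798) and 1.65 from 7 to 21 d (SE 0.47, adjusted p = 0.0758). Within July to August it differed from 0 h by -1.09 at 24 h on the log2(CPM + 1) scale, and within November to January by -1.99.

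*Dmp1* encodes dentin matrix protein 1, an osteocyte protein that regulates mineral and phosphate, and no change of it was called. It had 18.6, 49.6 and 19.6 TPM at 0 h, 23.1, 44.9 and 33.4 at 3 h, 43.2, 41.7 and 38.5 at 6 h, and 28.6, 48.5 and 27.3 at 12 h. The values were 15.6, 24.5 and 6.75 at 24 h, 16.0, 30.5 and 14.7 at 3 d, and from 14.1 to 63.1 with a median of 36.5 at 7 d. They were 37.0, 50.4 and 60.7 at 14 d and 31.1, 19.4 and 30.3 at 21 d. At every time the mice overlapped those at 0 h. Its log2 fold change was -0.92 at 24 h (SE 0.44, edgeR adjusted p = 0.508) and -0.03 at 21 d (SE 0.42, adjusted p = 1), and over the 9 time points its adjusted p was 0.148.

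*Mepe* encodes a matrix phosphoglycoprotein of osteocytes that restrains mineral. Its means were lowest at 14 and 21 d, though no contrast of it passed with all 30 mice. It had 8.46, 4.38 and 11.4 TPM at 0 h, 14.5, 12.7 and 12.3 at 12 h and 10.3, 9.65 and 11.8 at 3 d. At 3, 6 and 24 h the mice ranged from 2.75 to 12.0, and at 7 d from 3.39 to 10.5 with a median of 7.34. At 14 d the values were 0, 4.09 and 3.83, all under the 0 h mice, as 9.08% of genes were. At 21 d they were 0.42, 0.24 and 8.73. All mice at 12 h lay above all mice at 0 h, as 15.5% of genes did. The difference from 0 h was -1.59 at 14 d (SE 0.82, edgeR adjusted p = 0.612) and -1.30 at 21 d (SE 0.82, adjusted p = 0.78).

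*Sost* encodes sclerostin, the Wnt antagonist that osteocytes secrete to hold back bone formation, and had the lowest mean level of the 9 at 0 h. It had 5.81, 2.69 and 3.68 TPM at 0 h, and from 3 h to 3 d the mice ranged from 0 to 6.82. At 7 d the range was 0 to 6.99 with a median of 1.45, at 14 d the values were 0, 1.60 and 1.46, and at 21 d 0, 0 and 6.98. All mice at 3 d and at 14 d lay under all mice at 0 h, as 4.34% and 9.08% of genes did. None of its contrasts passed, with a log2 fold change of -1.98 at 14 d (SE 1.37, edgeR adjusted p = 0.815). Counts were few, at most 72 in a mouse.

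Replicate 3 at 21 d set both *Mepe* and *Sost* at that time. It had 64 counts of *Mepe* and 63 of *Sost*, while the other two 21 d mice had 4 and 3 counts of *Mepe* and 0 of *Sost*, which allows up to 0.251 and 0.184 CPM. Without replicate 3 at 21 d, which leaves 2 mice there, *Mepe* was lower than at 0 h by a log2 fold change of -4.43 (edgeR adjusted p = 0.00329). *Sost* was called lower too (adjusted p = 0.0337, against 2 mice at 0), and *Mepe* passed over the 9 time points (adjusted p = 0.0124). In that fit 5 of the 9 genes were called at 21 d, beside 316 of all 14114 genes tested. Replicate 1 at 14 d also had 0 counts of both genes. *Col10a1*, a hypertrophic cartilage collagen and the gene most like *Mepe* over the 30 mice (r = 0.76), had 1.35, 0.21 and 10.8 TPM in the 3 mice at 21 d and 0.36, 10.2 and 5.17 at 14 d, against 9.82 to 10.7 at 0 h. Replicate 3 at 21 d also had the lowest osteoclast sum of that time, 473 CPM against 895 and 1294, and the highest keratinocyte sum, 56861 CPM against 28256 and 41092. The title date of replicate 3 at 21 d falls in December, and those of the other 21 d mice in January. The part of these differences in *Mepe* and *Sost* was not tested.

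Of the 9 genes, 4 are neighbours. *Dmp1*, *Ibsp*, *Mepe* and *Spp1* follow each other on the plus strand of chromosome 5 with the dentin gene *Dspp* before them, as the SIBLING family of acidic mineral-binding proteins, within 270339 bases that hold 5 protein-coding genes. *Dspp* had counts in 2 of 30 mice and was not tested. Despite their place, their courses parted. At 21 d against 0 h the log2 fold change was 4.37 for *Ibsp*, 1.79 for *Spp1*, -0.03 for *Dmp1* and -1.30 for *Mepe*.

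Ratios of TPM within a mouse show the same parting without a comparison of libraries. They were chosen after the values were seen and are given as a description. *Ibsp* was 3.13, 4.82 and 6.94 times *Dmp1* in the mice at 0 h in rising order, 14.1 to 30.1 times at 3 d, 14.4 to 79.2 times at 7 d, 31.7 to 50.8 times at 14 d and 83.0 to 138 times at 21 d. The ranges from 3 d on all lay above that at 0 h, and that at 21 d above all others. *Spp1* was 0.626 to 2.29 times *Ibsp* at 0 h, 1.95 to 3.51 times at 12 h, 0.495 to 2.63 times at 7 d, 0.104 to 0.257 times at 14 d and 0.115 to 0.184 times at 21 d. Up to 7 d the 2 mRNAs thus lay within a few fold of each other, and at 14 and 21 d *Ibsp* was the more abundant in all 6 mice.

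**Figure D5:**
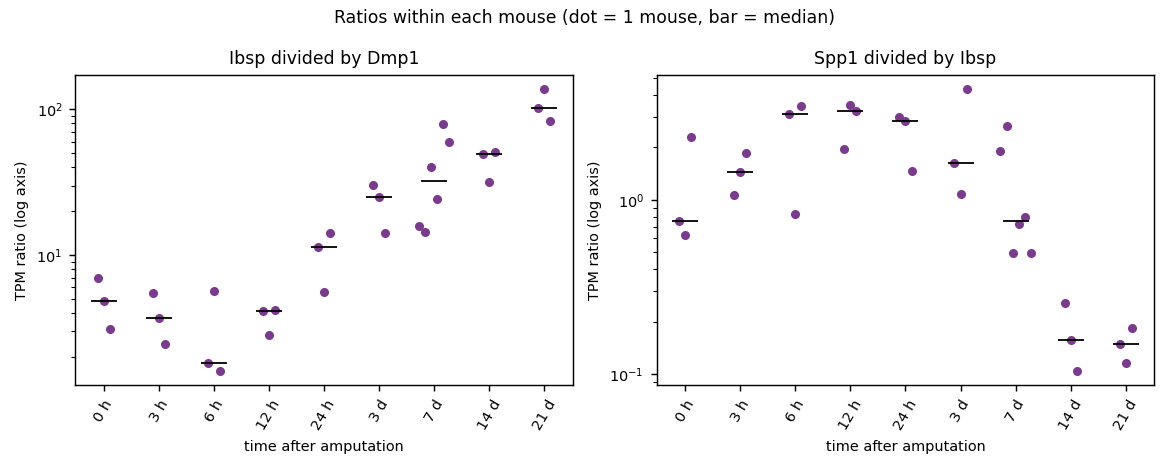
TPM ratios within each mouse (vertical axes, log) of *Ibsp* to *Dmp1* on the left and of *Spp1* to *Ibsp* on the right, at each time (horizontal axes); each dot is 1 mouse and each bar the median. *Ibsp* over *Dmp1* reaches 83.0 to 138 at 21 d from 3.13 to 6.94 at 0 h, and *Spp1* over *Ibsp* is at most 0.257 at 14 and 21 d.

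A list of 30 other genes of osteoblasts, osteocytes and mineral was read beside these, of which 28 were tested and 15 changed over the 9 time points, beside the 9.01% given above. Against 0 h, 1 of them was higher at 6 and at 12 h, beside 0.189% and 0.167% of all genes called in either direction. At 24 h 2 were higher. There 68 of 13791 genes were called in either direction in the fit with the osteocalcin copies summed. At 3 d 2 were higher, at 7 d 3, and at both 14 and 21 d 9, beside 0.486%, 1.68%, 1.48% and 1.73% of all genes called higher. Only *Bglap3* was lower, at 7 d, beside 0.66%. The median log2 fold change of the 28 was 0.79 at 14 d and 0.64 at 21 d, where the median of all genes tested was within 0.01 of 0. *Tnfsf11*, the osteoclast-inducing ligand RANKL, was higher from 24 h (4.21, SE 0.72, edgeR adjusted p = 0.0025) to 21 d (3.41, SE 0.71, adjusted p = 0.00573). *Pdpn*, a membrane protein of young osteocytes that epidermis and other cells also make, was higher at every time from 6 h to 21 d, with 3.04 at 24 h (SE 0.36, adjusted p = 1.36e-05).

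Some matrix and transcription factor genes of that list rose with *Ibsp* and *Alpl*, and others did not follow them. At 0 h, 14 d and 21 d mean TPM was 86.0, 85.3 and 106 for *Dlx5*, and 27.3, 27.2 and 23.4 for *Vdr*. For the matrix gene *Mgp* it was 90.2, 154 and 67.7. *Col1a1*, the main collagen of bone, rose at 7 d (edgeR adjusted p = 0.0133), by 3.25 at 14 d (SE 0.40, adjusted p = 1.23e-05) and 3.20 at 21 d (SE 0.40, adjusted p = 1.02e-05). Its partner *Col1a2* and the collagen-binding *Sparc* rose at 14 d by 2.40 and 1.96 and at 21 d by 2.67 and 2.31. *Sp7*, the osteoblast factor osterix, rose by 2.71 at 14 d and 2.73 at 21 d, and *Runx2*, the factor upstream of it, by 1.63 and 1.59. *Pth1r*, the parathyroid hormone receptor, rose by 1.82 and 1.67, *Phospho1*, a phosphatase of matrix vesicles, by 1.56 at 14 d, and *Cdh11*, the osteoblast cadherin, by 1.25 at 21 d. *Ifitm5*, *Omd*, *Enpp1* and *Cd44* passed only over the 9 time points together, with adjusted p of 0.0479, 0.0209, 0.0209 and 0.0387.

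The 9 genes also differed in which genes they resembled. Over 30 mice the 36 pairs among them had Pearson r of log2(CPM + 1) from -0.61 to 0.87 with a median of 0.11, and 14 were below 0, values that describe mice sharing time groups. The pair most alike was *Ibsp* and *Alpl*. Outside the 9, the genes most like *Ibsp* were *Rcn3* (r = 0.95), *Cthrc1* and *Fkbp10*, and those most like *Alpl* were *Col12a1* (r = 0.94), *Col5a2* and *Col6a2*. *Spp1* was closest to *Tgfbr1* (r = 0.84), *Xpr1* and *Cdh5*, *Phex* to *Col11a2* (r = 0.76) and *Col22a1*, and *Dmp1* to *Phex* (r = 0.69). *Sost* was closest to *Arhgef3* (r = 0.63). Genes most like the mean of the 9 were *Col22a1* (r = 0.79), *Col11a2* (r = 0.78), *Lamc1*, *Col24a1*, *Col1a2*, *Fap*, *Col11a1*, *Sgms2*, *Adam12* and *Ptprd*, and 8 of these 10 were also among the closest 10 on the log2(TPM + 1) scale.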

How the data were processed

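Total RNA of 30 digits was poly(A)-selected, made into LM-Seq libraries and sequenced as single 65-base reads. The authors mapped reads to Ensembl 75 mouse genes with Bowtie 0.12.8, allowing 2 mismatches, and estimated expected counts and TPM with RSEM 1.2.3. The deposited expected counts are not normalized, and 78.1% are whole within 0.005. The deposited TPM are relative to all genes of 1 mouse. The signal that the authors deposited per time, the mean of TPM scaled by median-by-ratio factors, was not used.

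Expected counts were rounded and fitted with edgeR 4.0.16 in R 4.3.3 (TMM, filter by time point, quasi-likelihood, Benjamini-Hochberg at 0.05), with all 30 mice in 1 fit and no covariate. The filter kept 13793 of 20321 genes, all 9 members among them, and the code was tested on simulated data. A standard error is the log2 fold change over the root of F. Non-overlap was read on TPM. CPM used TMM library sizes. Same-time mice differed beyond counting noise (chi-square per degree of freedom 9.83 to 94.7 over 39 pairs). Intervals from counts cover counting error only.

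Alternatives were DESeq2 1.42.0 (test and size factors), no filter, a threshold of 0.01, title-date period as covariate, only the mice compared, no left-foot mice, limma 3.58.1 on log2(TPM + 1), osteocalcin copies summed, and each mouse left out. The members and lists were chosen with earlier results of these data known. Named genes were the members, list genes with an adjusted p under 0.05, *Bglap3*, *Dspp* and the closest genes by Pearson r. Coordinates are from GENCODE M21 and promoters from RefSeq. *Bglap2* had no promoter entry.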

Additional observations from a re-analysis of the deposited data

Results flagged for a closer look

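*Phex* at 7 d was the one value set apart from its group among the 9 genes examined at 7 d, the only time with more than 3 mice. The lowest mouse, replicate 5, a right digit of November to January, had 3.21 CPM (1.03 TPM), and on the CPM scale its gap to the nearest of the others was 0.633 of the whole range, above the critical value of 0.625. On the TPM scale the gap was 0.432, under that value. Chance sets about 1 in 20 groups apart in this way, and the cause was not tested.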

How the results depend on the processing

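No change of direction was seen in any alternative for contrasts called in at least 1 fit. Apart from the osteocalcin sum, other contrasts were not compared for direction. At 12 h against 0 h, 1 member was called with only the mice compared, against 0. All genes called there were 111 of 12711, against 23 of 13793. At 24 h, 2 were called with DESeq2 and 2 without the left-foot mice, and 0 at a threshold of 0.01, against 1. All genes called in these settings were 139 of 13793, 96 of 13718 and 41 of 13793. At 7 d DESeq2 called 5, against 3, and 596 of 13793 genes in all. There edgeR called 1.68% of genes higher and 0.66% lower. At 21 d against 7 d DESeq2 called 5, limma on log2(TPM + 1) 1 and a threshold of 0.01 none (0), against 3. All genes called in these settings were 412, 130 and 81 of 13793. The cause was not tested, except that a stricter threshold can only remove calls. Leaving out each mouse in turn gave 5 to 6 members over the 9 time points, 0 at 3, 6 and 12 h, 0 to 1 at 24 h, 2 at 3 d, 3 to 4 at 7 d, 2 to 3 at 14 d, 2 to 5 at 21 d and 1 to 3 at 21 d against 7 d. The 5 at 21 d came without replicate 3 of that time, the 0 at 24 h without replicate 2 at 0 h or at 24 h, and the 1 at 21 d against 7 d without replicate 1 or 2 at 21 d. *Phex* over the 9 time points was lost under 2 other alternatives, with adjusted p from 0.000522 to 0.0732 over its alternatives. Without replicate 3 at 24 h, *Spp1* at 24 h (adjusted p = 0.0281) and *Alpl* at 7 d (0.0303) were gained, and without replicate 3 at 7 d, *Bglap* at 7 d (0.0423). Replicate numbers here follow accession order and pair no mice. No paired analysis was possible because a title label and date recur together for only 1 pair of libraries, at 0 and 12 h. On the TPM scale, tried after seeing the data, the gap of the lowest *Phex* mouse at 7 d was 0.432 of the range, under the critical value. Depth limits *Sost*, *Mepe*, *Bglap* and *Bglap2*, which had 3 counts or fewer in 7, 2, 6 and 6 of 30 mice. For *Bglap* and *Bglap2* these mice were all from 24 h to 7 d, and for *Mepe* from 14 and 21 d.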
